A study of Mus musculus with 15 samples.

Results

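The comparison set Myc-CaP cells carrying the F191G form of Twist1 against Myc-CaP cells carrying the AQA form. Its members are 6 of the 15 single-colour Affymetrix Mouse Gene 1.0 ST arrays of the study, taken by their titles: F191G A, B and C and AQA A, B and C. Myc-CaP is a cell line from a prostate tumour of a mouse with a prostate-driven human MYC transgene, so every group shares that transgene. All cells were transfected and selected, then grown to confluence, and total RNA was hybridised. By the labels the groups differ in the construct they carry. F191G is named for a change in the C-terminal Twist box of Twist1, and AQA and DQD are forms that the labels do not spell out. In the Twist1 literature these names stand for forms in which a threonine and a serine of the basic helix-loop-helix region are replaced by alanines (AQA) or by aspartates (DQD). The remaining 9 arrays (3 with the vector alone, VEC, 3 with unaltered Twist1, WT, and 3 with DQD) entered the fit so that 1 estimate of the spread was shared. The labels name neither the promoter that drives the constructs nor a separate culture or clone for each of the 3 arrays of a form, so p-values here cover the variation among arrays only, and that may be technical.

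Twist1 is a basic helix-loop-helix factor that pairs with E proteins such as Tcf3 and binds E-box sequences. It is best known from epithelial-mesenchymal transition, in which epithelial cells lose cadherin junctions and gain motility, and for its activity in metastatic carcinoma. The basic helix-loop-helix region makes the DNA and dimer contacts, and the Twist box at the other end of the protein takes part in transcriptional regulation and in contacts with other factors. The comparison therefore sets a form altered in the Twist box beside a form altered in the basic helix-loop-helix region.

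Of 19297 genes with a single-symbol probe set, 2 (0.0104%) passed the test, Ctdsp1 higher and Dcps lower in F191G (limma with array batch as a term, adjusted p under 0.05). Neither reached a 2-fold difference. The promoters of these genes are printed because they are the called pair, that of Folh1 because it had the largest difference among the genes next in rank that were higher in F191G, and those of Ifit1 and Bst2 because they belong to the interferon response, the gene list with the largest median difference. Each line gives the 250 bases before the annotated start in RefSeq on GRCm38.p6, 5′ to 3′ on the gene's strand, as chr1:74391359-74391608 on the + strand for Ctdsp1, chr9:35175988-35176237 on the - strand for Dcps, chr7:86775865-86776114 on the - strand for Folh1, chr19:34640639-34640888 on the + strand for Ifit1 and chr8:71537473-71537722 on the - strand for Bst2. Capitals mark an E-box (CANNTG) in the first 3 lines, and in the last 2 the letters GAAA repeated with any 2 bases between them, or the reverse complement, which is the core of the interferon-stimulated response element.
Ctdsp1: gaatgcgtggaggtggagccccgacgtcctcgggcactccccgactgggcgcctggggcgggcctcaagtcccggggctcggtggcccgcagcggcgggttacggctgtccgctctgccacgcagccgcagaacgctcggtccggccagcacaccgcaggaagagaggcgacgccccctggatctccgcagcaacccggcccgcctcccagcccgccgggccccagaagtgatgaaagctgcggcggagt
Dcps: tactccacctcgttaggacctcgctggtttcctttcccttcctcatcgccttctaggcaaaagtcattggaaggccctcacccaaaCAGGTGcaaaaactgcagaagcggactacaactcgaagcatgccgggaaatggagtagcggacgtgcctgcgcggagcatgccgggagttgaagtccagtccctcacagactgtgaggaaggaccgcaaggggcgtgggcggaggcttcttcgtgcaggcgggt
Folh1: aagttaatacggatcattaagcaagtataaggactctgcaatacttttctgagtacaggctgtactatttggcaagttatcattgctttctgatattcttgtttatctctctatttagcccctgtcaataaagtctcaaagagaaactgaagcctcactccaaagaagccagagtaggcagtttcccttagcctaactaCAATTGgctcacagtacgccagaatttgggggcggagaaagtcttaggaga
Ifit1: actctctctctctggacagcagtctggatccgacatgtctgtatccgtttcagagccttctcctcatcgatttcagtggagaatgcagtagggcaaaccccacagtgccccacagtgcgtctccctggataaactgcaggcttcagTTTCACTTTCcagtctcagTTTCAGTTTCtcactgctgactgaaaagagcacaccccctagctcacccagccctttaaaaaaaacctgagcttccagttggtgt
Bst2: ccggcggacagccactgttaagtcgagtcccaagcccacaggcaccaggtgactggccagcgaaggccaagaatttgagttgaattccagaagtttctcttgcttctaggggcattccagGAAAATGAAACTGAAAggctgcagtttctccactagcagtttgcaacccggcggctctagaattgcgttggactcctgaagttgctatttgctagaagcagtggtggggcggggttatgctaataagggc

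The Ctdsp1 window held no E-box. The Dcps window held 1, with the letters CAGGTG, 164 bases before the start, and the Folh1 window 1, with the letters CAATTG, 51 bases before it. The Ifit1 window held the interferon element in a pair, 104 and 85 bases before the start, and the Bst2 window held 2 overlapping matches at 130 and 124 bases. Windows of the same 250 bases plus 50 after the start were searched on both strands for all genes, and 15161 of the 19297 had at least 1 such window. CANNTG was in 71.3% of them, and in 8 of 10 windowed genes among the 12 highest-ranked with higher values in F191G and 7 of 9 among the 12 with lower values. It was also in 31 of 36 windowed interferon genes (86.1%), those of Ifit1 and Bst2 included, where it is not in capitals. Of its forms, CATATG was in 3.22% of all genes and in 0 of either set, and CATCTG was in 15.9% of all genes and in 1 of 10 and 1 of 9. The interferon element was in 3.9% of all genes in 15 of 36 windowed interferon genes (41.7%), in 2 of 10 of the higher set and in 0 of 9 of the lower set. These are matches of letters in a window and were not tested.

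The 15 arrays correlated with each other at 0.969 to 0.998, and the 6 arrays of this comparison at 0.994 to 0.998. The lowest values belonged to WT A, without which the lowest was 0.99. For the genes described, calls gained when it is left out are given. Batch A of the labels holds F191G A, AQA A and AQA B, and batch B holds F191G B, F191G C and AQA C. AQA A stood apart from the other AQA arrays in the interferon genes and is treated there. Among the markers of the line's epithelial origin, Krt8 read 7.35 to 8.15 on the 6 arrays, Epcam 4.88 to 5.09, Krt18 5.60 to 5.74 and Cdh1 5.51 to 5.68, where the array medians were 6.31 to 6.42, and the androgen receptor was not analysed here. No detection calls were used, and since brightness differs between probe sets these values do not show whether a marker was expressed.

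A difference in Twist1 itself between the forms was not detectable. Its probe set read 6.65, 6.85 and 6.76 on F191G A, B and C and 6.87, 6.41 and 6.75 on AQA A, B and C, in log2 units as deposited. The arrays overlapped, with AQA holding both the highest and the lowest value. The difference was 0.08 (SE 0.151, 95% interval -0.25 to 0.40, limma adjusted p = 0.927). Without AQA B it was -0.05. The series' design text mentions a normalization by Twist1 expression, and whether the deposited values carry it is not known, so the Twist1 values may be set in part by processing. The position of the probe set on the transcript is not given here, nor whether it reads the introduced form.

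Ctdsp1 encodes a small phosphatase of the carboxy-terminal domain of RNA polymerase II, known as a partner in silencing neuronal genes. It read 10.04, 10.08 and 9.97 on F191G A, B and C and 9.49, 9.58 and 9.54 on AQA A, B and C. Every F191G array lay above every AQA array, by more than the range within either form. The rise was 0.50 (SE 0.0658, 95% interval 0.35 to 0.64, limma adjusted p = 0.0419), which is 1.41-fold. The difference was 0.51 within batch A and 0.49 within batch B. The VEC, WT and DQD means were 9.73 ± 0.11, 9.92 ± 0.04 and 9.89 ± 0.04 (SD, n = 3 each), so AQA was the group with the lowest mean.

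Dcps encodes the scavenger decapping enzyme, which breaks down the cap left after mRNA decay. It read 9.79, 9.91 and 9.84 on the F191G arrays and 10.39, 10.28 and 10.36 on the AQA arrays, again with no overlap. It fell by 0.49 on the log2 scale in F191G (SE 0.0626, limma adjusted p = 0.0419), by 0.54 within batch A and 0.48 within batch B. DQD was the group with the lowest mean, 9.78 ± 0.01, next to F191G at 9.85 ± 0.06, and AQA had the highest, 10.34 ± 0.06, with VEC at 10.16 ± 0.07 and WT at 10.05 ± 0.07 between them (SD, n = 3 each). Both calls depend on single arrays: when each of the 6 arrays was left out in turn, Ctdsp1 was called in 0 of 6 fits and Dcps in 1, that without AQA B, while the differences ran from 0.47 to 0.52 and from -0.52 to -0.45.

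**Figure D1:**
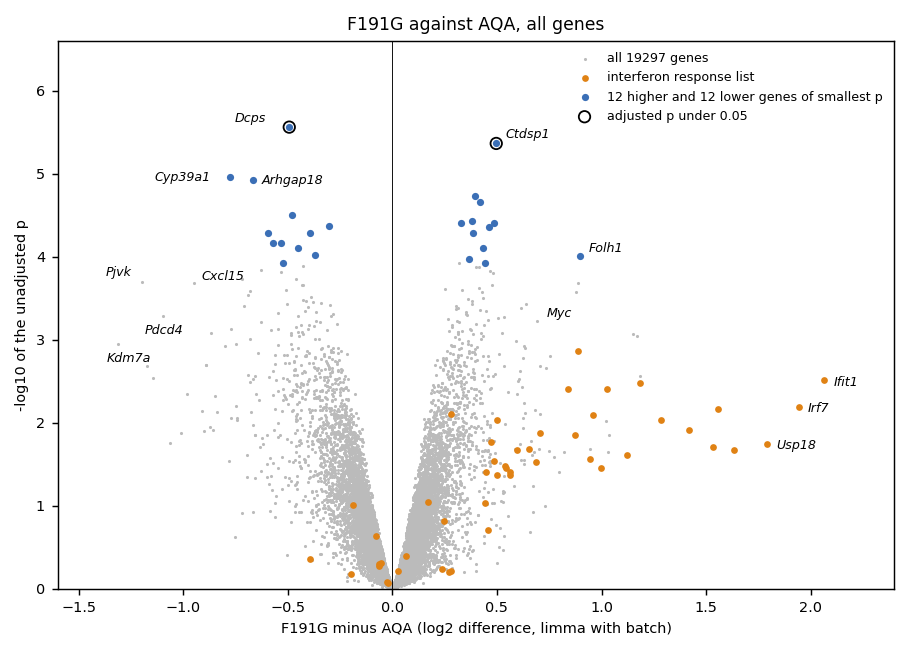
Difference between F191G and AQA (horizontal axis, log2) against the -log10 of the unadjusted p (vertical axis) for each of 19297 genes. The 2 circled genes, Ctdsp1 and Dcps, passed the test, the blue points are the 12 higher and 12 lower genes of smallest p, and the orange interferon genes lie mostly to the right, with larger differences and larger p.

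At an unadjusted p under 0.05, 1068 genes (5.53%) were higher and 1075 (5.57%) lower in F191G, 2143 in all (11.1%). All 3 F191G arrays lay above all 3 AQA arrays in 2148 genes (11.1%) and below them in 1891 (9.8%). The median difference over all genes was 0.0046 and the median SE 0.0874. When WT A was left out of the fit, 75 genes (0.389%) were called, 33 higher and 42 lower, the pair above among them. WT A is no member of the comparison and moves only the shared spread and the batch term.

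The next genes in rank did not pass the test and are given by their values. With Ctdsp1 and Dcps they make up the 12 genes of smallest p in each direction, with limma adjusted p from 0.0419 to 0.0887. All 24 had no overlap between the 6 arrays, where 11.1% of all genes had F191G wholly above AQA and 9.8% wholly below. The 24 were picked by p on these same arrays, so the lack of overlap largely follows from the choice. All 24 were also called without WT A, a fit that keeps the same 6 arrays and is no separate support. Among those higher in F191G, Sar1b, the small GTPase that starts the COPII coat of vesicles leaving the endoplasmic reticulum, read 9.98, 9.86 and 9.89 in F191G and 9.46, 9.51 and 9.57 in AQA, a difference of 0.39 (SE 0.060, adjusted p = 0.0677). Atp6v1b2, a subunit of the catalytic sector of the vacuolar proton pump, read 10.03, 10.08 and 10.07 against 9.55, 9.72 and 9.52, a difference of 0.46 (adjusted p = 0.0677). Its values in WT (9.998 to 10.18) and DQD (10.14 to 10.33) were on the F191G side, and those in VEC (9.67 to 9.77) on the AQA side. Atp6v0a2, a subunit of the membrane sector of the same pump, read 10.15, 9.96 and 9.97 against 9.59, 9.73 and 9.65, a difference of 0.37 (adjusted p = 0.0887), and here VEC, at 9.98 to 10.003, lay with F191G. Over the 24 genes of the pump and its accessory proteins, a group chosen after the values were seen, the median difference was 0.05. Of these, 17 were above 0 and 3 were higher at an unadjusted p under 0.05 (5.53% of all genes), the third being Atp6v1h at 0.27.

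Folh1, which encodes prostate-specific membrane antigen, a folate hydrolase of prostate epithelium, had the largest difference of the 12 higher genes. It read 9.75, 9.53 and 9.63 on F191G A, B and C and 8.37, 8.97 and 8.88 on AQA A, B and C. The lowest F191G array lay above the highest AQA array, and AQA A lay below the other AQA arrays. The difference was 0.90 (SE 0.162, 95% interval 0.55 to 1.24, limma adjusted p = 0.0887), 1.86-fold, and 0.72 without AQA A. WT (9.59 to 9.74) and DQD (9.88 to 10.15) were level with or above F191G, and VEC (7.92 to 8.48) was the lowest group. Relative to VEC the F191G difference was 1.43 (SE 0.162) and the AQA difference 0.54 (SE 0.158), both from the same 3 VEC arrays. Of the 23 measured prostate luminal and androgen-related genes, Folh1 included, 1 was higher and 2 were lower at an unadjusted p under 0.05. The shares of all genes were 5.53% and 5.57%, and the list median was -0.03. The lower pair was Hoxb13, a prostate homeobox factor (difference -0.50, adjusted p = 0.22), and the transporter gene Abcc4 (-0.13).

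Of the remaining higher genes, Gtf2h1, a core subunit of the transcription and repair factor TFIIH, read 9.02, 8.97 and 8.96 in F191G and 8.53, 8.49 and 8.47 in AQA, a difference of 0.48 (adjusted p = 0.0677). Atp5e, the epsilon subunit of mitochondrial ATP synthase, read 8.24, 8.27 and 8.27 against 7.86, 7.85 and 7.81, and every VEC, WT and DQD array was at 8.06 or above, so that AQA alone was low. Dlg5, a scaffold of cell junctions and polarity, showed the same arrangement, with 9.15 to 9.21 in F191G, 8.75 to 8.82 in AQA and 8.94 to 9.28 elsewhere. So did Ube2f, a conjugating enzyme for the ubiquitin-like protein NEDD8, at 7.24 to 7.31, 6.93 to 6.96 and 7.04 to 7.28. Trim26, a ubiquitin ligase gene (difference 0.39), B4galt5, the galactosyltransferase that makes lactosylceramide (0.43), and Ogfr, the opioid growth factor receptor (0.44), completed the 12.

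Of the lower genes, Cyp39a1 and Arhgap18 came nearest to the threshold. Cyp39a1, a cytochrome P450 that hydroxylates oxysterols, read 5.88, 6.10 and 6.02 on F191G A, B and C and 6.81, 6.58 and 6.93 on AQA A, B and C. All AQA arrays lay above all 12 other arrays of the study, of which the highest was 6.46. The difference was -0.77 (SE 0.112, limma adjusted p = 0.0585). Arhgap18, a GTPase-activating protein, read 7.07, 7.40 and 7.19 against 7.96, 7.75 and 7.95, a difference of -0.67 (SE 0.097, adjusted p = 0.0585). For this gene F191G was close to VEC (7.07 to 7.26), DQD (7.46 to 7.55) lay between F191G and AQA, and WT (7.54 to 7.78) lay above F191G and overlapped AQA.

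Msrb2, a mitochondrial reductase for oxidised methionine, read 6.89, 7.07 and 7.20 in F191G and 7.70, 7.51 and 7.73 in AQA (difference -0.60, adjusted p = 0.0677), and WT lay with AQA at 7.55 to 7.71. Inpp1, an inositol phosphate phosphatase, read 5.40, 5.37 and 5.42 against 5.86, 5.85 and 5.92, again with WT (5.81 to 6.004) on the AQA side. H2az2, a histone H2A.Z gene, read 9.60 on all 3 F191G arrays and 9.87, 9.92 and 9.92 in AQA, with WT at 9.88 to 9.90. In these 3 genes the AQA and WT arrays overlapped while F191G was apart from both. Trmt112, an activator of several methyltransferases, read 11.77 to 11.90 against 12.16 to 12.28, and Fzd7, a receptor for Wnt ligands, 7.49 to 7.54 against 7.87 to 8.03. In both, every array outside F191G was at least as high as the highest F191G array. Fzd2, a related Wnt receptor, differed by -0.29 (adjusted p = 0.126), with 8.03 to 8.12 in F191G and 8.32 to 8.39 in AQA. The other lower genes were Sfxn4, a mitochondrial sideroflexin (-0.52), Zfp9, a zinc finger gene (-0.57), Mfsd13a (-0.53) and Gnrh1, the gonadotropin-releasing hormone precursor (-0.37).

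**Figure D2:**
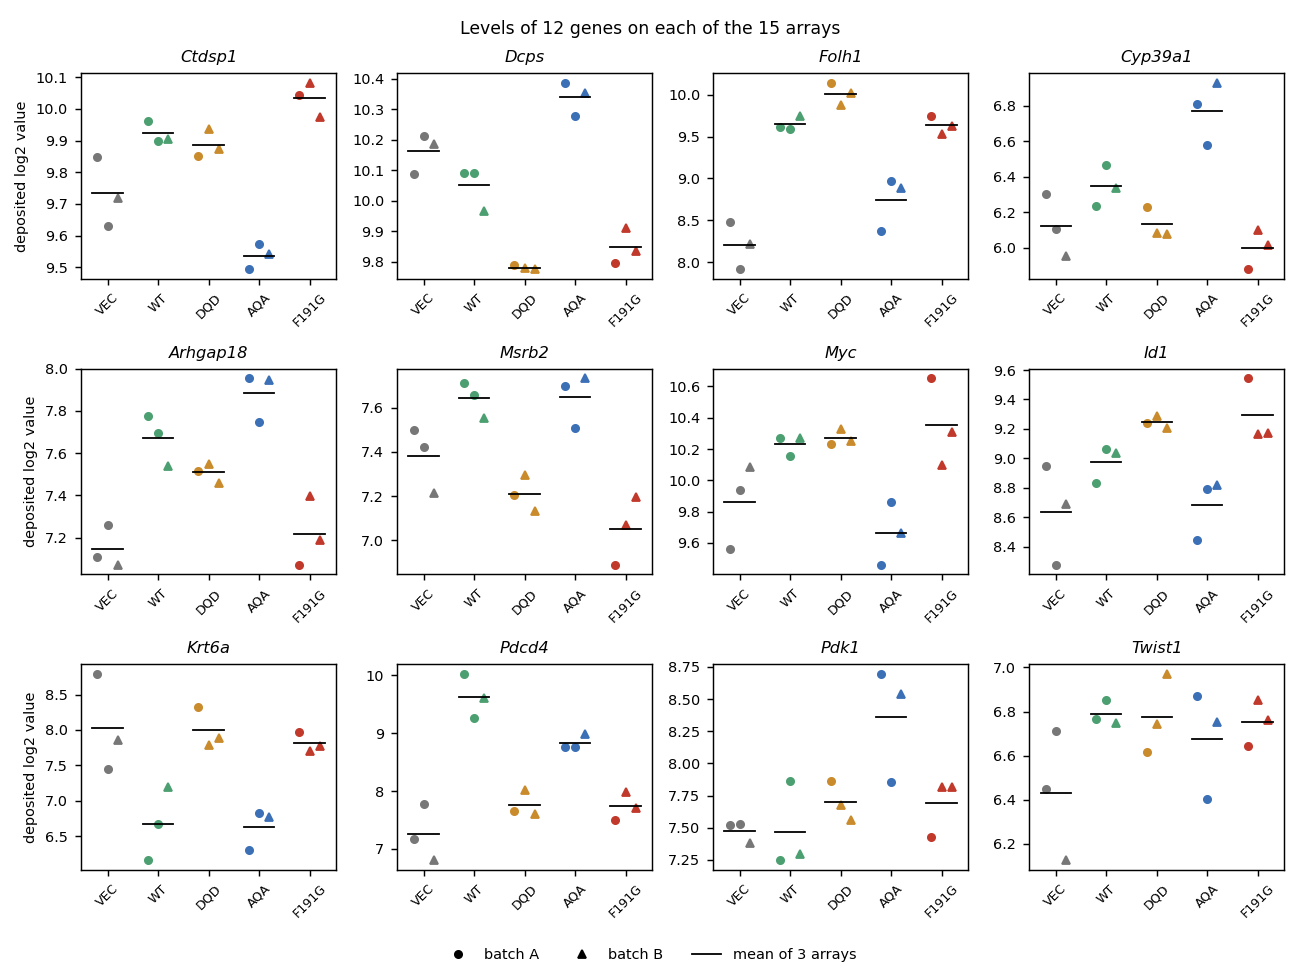
Deposited log2 values of 12 genes on each of the 15 arrays, with 1 panel per gene and its own vertical range. Circles are batch A, triangles batch B and the line the mean of the 3 arrays, and in Ctdsp1, Dcps, Folh1, Cyp39a1, Arhgap18 and Msrb2 the F191G and AQA arrays do not overlap, while in Twist1 they do.

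The DQD mean was nearer to the F191G mean than to the AQA mean in 21 of these 24 genes, and over all genes in 10765 of 19297 (55.8%). For the WT mean the count was 11 of 24, against 45.9% of all genes, and for VEC 11 of 24, against 53.9%. DQD and F191G share a batch layout, with 1 array in A and 2 in B. AQA, WT and VEC each have 2 arrays in A and 1 in B. Every group has arrays in both batches, but the group means are not corrected for batch. These counts therefore do not separate nearness through the form from nearness through batch, and this was not tested. The genes were picked on the F191G and AQA arrays alone, and the DQD, WT and VEC arrays entered that choice only through the shared spread and the batch term. In Sfxn4 the DQD arrays, at 5.09 to 5.35, lay nearer to AQA (5.27 to 5.52) than to F191G (4.72 to 4.97).

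**Figure D3:**
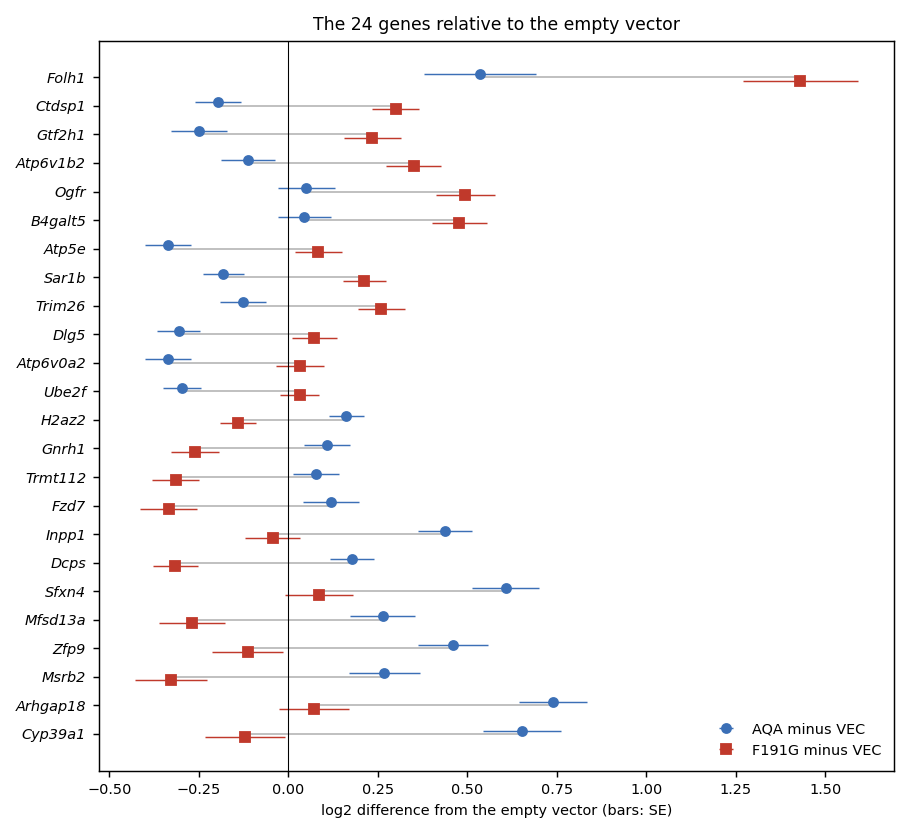
Difference from the empty vector, in log2 units with SE, of the AQA form (blue circles) and the F191G form (red squares) for the 24 genes, ordered by their difference. Both forms were set against the same 3 VEC arrays, and Folh1 has the largest F191G value, 1.43.

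The largest differences were in interferon-stimulated genes, and none of these passed the test. Type I interferons signal through a complex of Stat proteins with Irf9, which binds the element marked above and induces antiviral genes. Those include sensors of foreign RNA, the oligoadenylate synthetases (Oas genes), the Ifit proteins, which bind viral RNA, and the Mx GTPases. Of the 49 measured genes of the interferon response list, 40 were above 0, 31 were higher and 0 lower at an unadjusted p under 0.05 (5.53% and 5.57% of all genes), and the median difference was 0.54, against 0.0046 over all genes. The limma test called 0 of them, where it called 0.0104% of all genes. In 14 of the 49 all 3 F191G arrays lay above all 3 AQA arrays, against 11.1% of all genes.

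Ifit1 had the largest difference of all genes. It read 6.20, 7.12 and 7.09 on F191G A, B and C and 6.13, 3.85 and 4.24 on AQA A, B and C. The lowest F191G array was just above AQA A, and AQA A was far above the other AQA arrays. The difference was 2.06 (SE 0.569, 95% interval 0.83 to 3.29, limma adjusted p = 0.177), 4.18-fold, and it was 1.21 within batch A and 2.87 within batch B. Irf7, the factor that amplifies interferon production, read 6.63, 7.28 and 7.32 against 6.62, 4.28 and 4.49, a difference of 1.94 (adjusted p = 0.232). Usp18, a protease that removes the ubiquitin-like modifier Isg15 and damps interferon signalling, read 6.96, 7.57 and 7.70 against 7.34, 4.74 and 4.78 (1.79, adjusted p = 0.315), and its groups overlapped through AQA A.

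Irf9, the DNA-binding part of the signalling complex, had the smallest p of the list. It read 7.58, 7.90 and 7.81 on the F191G arrays and 7.33, 6.64 and 6.66 on the AQA arrays, a difference of 0.89 (SE 0.219, limma adjusted p = 0.162). Xaf1, an interferon-induced partner of the apoptosis inhibitor XIAP, read 6.01, 6.38 and 6.20 against 5.77, 4.52 and 4.75 (1.19, adjusted p = 0.182). Bst2, the tetherin that holds enveloped virus at the cell surface, read 7.85, 8.22 and 8.25 against 7.75, 6.94 and 7.11 (0.84, adjusted p = 0.191). In each of the 3, AQA A was the AQA array nearest to F191G, and F191G A was the lowest F191G array. Oas2 (1.53), Oas3 (1.28), Oasl2 (1.42), Mx2 (1.55), Rtp4 (1.63), Lgals3bp (1.12) and Herc6 (1.03) were the other list members with differences of at least 1 on the log2 scale.

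Other members differed by less than the list median or were lower in F191G. Ifit3 read 7.48, 8.44 and 8.19 in F191G and 8.70, 6.81 and 7.77 in AQA, a difference of 0.28 (adjusted p = 0.926) with overlapping arrays. Both forms lay far above VEC (3.52 to 4.90) in this gene, by 3.76 (SE 0.537) for F191G and 3.49 (SE 0.524) for AQA from the same VEC arrays. Its near copy Ifit3b differed by -0.40 (adjusted p = 0.865), and probes may not separate this pair. Ifit2 differed by -0.19 and Irf1, a factor induced mainly by interferon gamma, by -0.20. The RNA sensor gene Ifih1 was level on all 6 arrays (4.45 to 4.53), and Stat2 differed by 0.45.

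Averaged over the 49 genes and set against the VEC mean, F191G A, B and C stood at 0.83, 1.19 and 1.18 and AQA A, B and C at 1.01, 0.10 and 0.20. AQA A was thus level with the F191G arrays, and AQA B and C were near the VEC arrays, which ran from -0.27 to 0.36. WT ran from 1.005 to 1.29 and DQD from 0.77 to 1.28. The median difference was 0.25 within batch A, which pairs F191G A with AQA A and B, and 0.82 within batch B, which pairs F191G B and C with AQA C. The fit of the batch B arrays alone called 25 genes, 18 of them list members, but AQA C is its only AQA array, so that array is assumed to vary like the arrays of the other groups. The batch A arrays alone, with F191G A as the only F191G array and the same assumption, gave 0 list members called, with 1 higher and 1 lower at an unadjusted p under 0.05. Without AQA A the median was 0.80 with 34 members higher at an unadjusted p under 0.05, and 0 were called. That count fell from 31 to 17 without F191G B, to 18 without F191G C, to 13 without AQA B and to 6 without AQA C. The mean of the DQD arrays was nearer to F191G than to AQA in 45 of the 49 (91.8%), against 55.8% of all genes. For the WT mean the count was 35 (71.4%, against 45.9%), and for the VEC mean it was 9 (18.4%, against 53.9%). DQD has the batch layout of F191G, WT and VEC have that of AQA, and these means are not corrected for batch. AQA A and AQA B, which lay far apart on this list, are both in batch A.

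**Figure D4:**
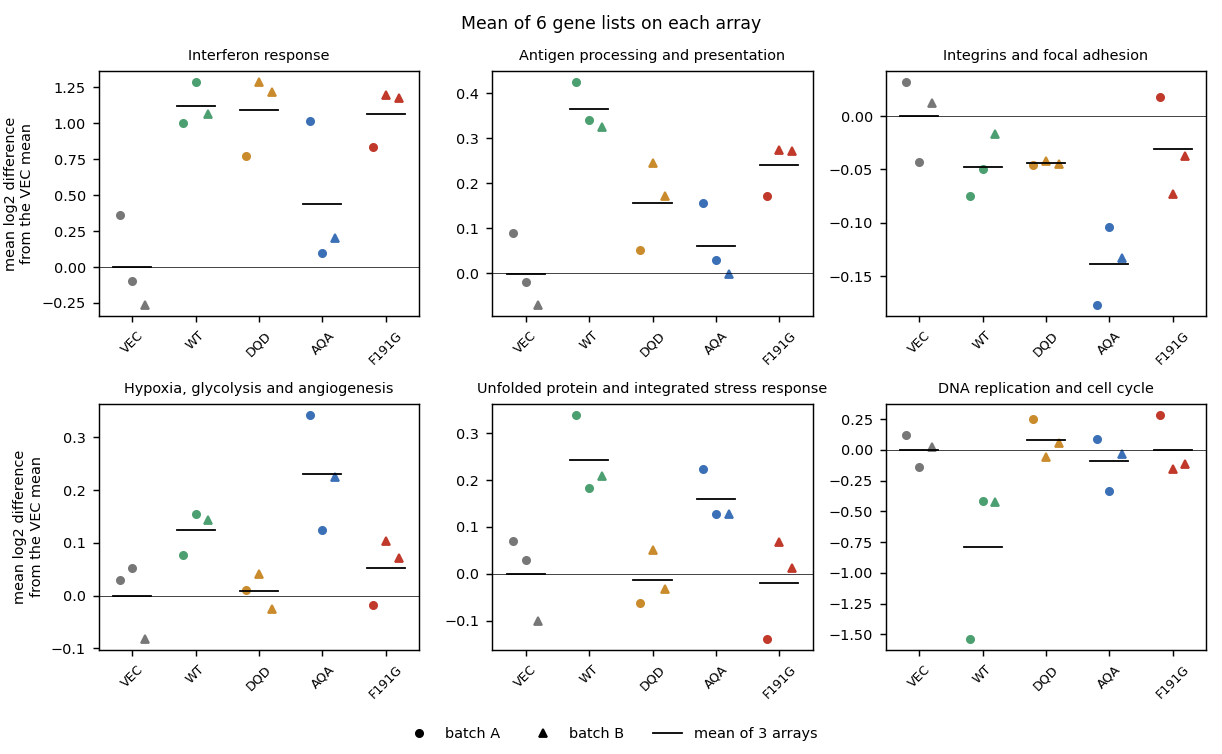
Mean difference from the VEC mean (log2) over the members of 6 gene lists, on each of the 15 arrays, with circles for batch A, triangles for batch B and lines for the mean of 3 arrays. In the interferon list AQA A stands at 1.01, level with F191G, and the other AQA arrays at 0.10 and 0.20.

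Antigen processing and presentation genes, many of which interferon also induces, gave 6 higher and 0 lower of 19 at an unadjusted p under 0.05 (5.53% and 5.57% of all genes), with a median of 0.12. In 6 of the 19 all F191G arrays lay above all AQA arrays, against 11.1% of all genes. The immunoproteasome subunit gene Psmb10 read 8.02, 8.16 and 8.07 in F191G and 7.92, 7.68 and 7.58 in AQA, a difference of 0.36 (limma adjusted p = 0.163). Erap1, the aminopeptidase that trims peptides for presentation, differed by 0.40 (adjusted p = 0.198), Psmb9 by 0.29 and Psmb8 by 0.37. The list mean lay at 0.17, 0.28 and 0.27 above VEC on F191G A, B and C and at 0.16, 0.03 and 0.00 on AQA A, B and C, so AQA A was again the nearest to F191G. Without AQA C, 2 members were higher at an unadjusted p under 0.05.

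Differences of at least 2-fold, a size at which genes were picked after their values were seen, were found in 24 genes, 17 higher and 7 lower in F191G, and 0 of the 24 were called. Without WT A, 3 of the 24 were called, Kdm7a, Pdcd4 and Pjvk, all lower in F191G with a limma adjusted p of 0.0447. Of the 17 higher, 11 are members of the interferon list, and Irgm1, Ddx60, Gbp7 and Iigp1 are also known as interferon-induced. The others were Krt6a, a keratin of stressed and basal epithelium, and the small Cajal body RNA Scarna13. Krt6a read 7.98, 7.71 and 7.78 on the F191G arrays and 6.30, 6.83 and 6.77 on the AQA arrays, a difference of 1.19 (SE 0.321, adjusted p = 0.172). VEC (7.45 to 8.80) and DQD (7.78 to 8.32) lay with F191G, and WT (6.16 to 7.20) with AQA. Scarna13 read 9.41, 9.20 and 9.60 against 8.03, 8.66 and 8.07 (1.15, adjusted p = 0.139).

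The 6 arrays overlapped in 8 of the 17 higher genes (Usp18, Rtp4, Mx2, Oasl2, Oas3, Ddx60, Gbp7 and Iigp1) and in 0 of the 7 lower. Over all genes F191G lay wholly above AQA in 11.1% and wholly below in 9.8%. The 2-fold genes were picked by their differences on these same arrays, so a lack of overlap largely follows from the choice. Pdcd4, an inhibitor of translation initiation and a tumour suppressor, read 7.51, 7.99 and 7.71 in F191G and 8.76, 8.76 and 8.98 in AQA. F191G lay near DQD (7.61 to 8.01) and VEC (6.80 to 7.77), AQA lay above them, and WT (9.26 to 10.03) was the highest group. The difference was -1.10 (SE 0.239, limma adjusted p = 0.126). Kdm7a, a histone demethylase gene, had the same order of groups, with 5.96, 6.89 and 6.50 against 7.59, 7.97 and 7.75 and WT at 7.98 to 9.30 (difference -1.31, adjusted p = 0.16). Selenbp1, a selenium-binding protein gene, read 6.66, 7.88 and 7.53 against 8.74, 8.34 and 8.51 (-1.17, adjusted p = 0.166). Pjvk, the hearing-related gene of pejvakin, read 6.03, 4.99 and 5.70 in AQA, above every other array, with F191G at 4.21 to 4.51 and the other groups at 4.03 to 4.95 (-1.20, adjusted p = 0.105). Ddit4, Lpin1 and Klhl24 completed the 7, and in these F191G A was the lowest of the F191G arrays, at 6.79 for Ddit4 and 5.69 for Lpin1.

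The genes for which Twist1 is best known are in the epithelial-mesenchymal list, whose 25 measured genes had a median difference of 0.04. Of these, 0 were called, where 0.0104% of all genes were. At an unadjusted p under 0.05, 2 were higher and 0 lower (5.53% and 5.57% of all genes). All F191G arrays lay above the AQA arrays in 4 and below them in 2 (11.1% and 9.8% of all genes). Cdh1, the epithelial cadherin, read 5.55, 5.51 and 5.56 in F191G and 5.63, 5.68 and 5.51 in AQA, a difference of -0.07 (limma adjusted p = 0.807) with overlapping arrays. Vim, the intermediate filament of mesenchymal cells, read 12.64, 12.37 and 12.45 against 12.44, 12.29 and 12.48 (0.08, adjusted p = 0.875). The 95% intervals of these differences were -0.20 to 0.07 for Cdh1 and -0.15 to 0.32 for Vim, on the log2 scale. The differences of Cdh2 (0.02), Fn1 (0.01), Snai1 (0.04), Snai2 (0.11), Zeb1 (0.04) and Twist2 (-0.01) were of similar size, and that of Hoxa9 was -0.05. Zeb2, a repressor of Cdh1, read 8.40 to 8.47 in F191G and 8.31 to 8.35 in AQA, without overlap, for a difference of 0.10 (adjusted p = 0.562). Tagln, an actin-binding protein of contractile cells, had the smallest p of the list, at 6.39, 5.90 and 6.25 against 5.32, 5.81 and 5.50 (0.64, adjusted p = 0.162).

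Of 18 genes for Twist proteins, their E protein partners and their Id antagonists, 4 were higher and 0 lower at an unadjusted p under 0.05. The shares of all genes were 5.53% and 5.57%. The list median was 0.06, and 3 of the 4 were Id genes. In 5 of the 18 all F191G arrays lay above the AQA arrays, against 11.1% of all genes. Id proteins bind E proteins and keep them from DNA, and their genes are classic targets of BMP signalling. Id1 read 9.54, 9.17 and 9.17 on F191G A, B and C and 8.45, 8.79 and 8.82 on AQA A, B and C. The groups did not overlap, and F191G A was the highest and AQA A the lowest array. The difference was 0.61 (SE 0.162, limma adjusted p = 0.168), 0.93 within batch A and 0.35 within batch B, and 0.42 without F191G A. Id2 differed by 0.31 (adjusted p = 0.163) and Id3 by 0.70 (adjusted p = 0.333), and Tcf3, an E protein partner, by 0.17 (adjusted p = 0.434), all without overlap. In the TGF-beta and BMP list, which also holds the Id genes, 8 of 44 were higher and 1 lower at an unadjusted p under 0.05 (5.53% and 5.57% of all genes), with a median of 0.04. The inhibitory Smad genes were among these: Smad6 read 8.27, 8.06 and 8.001 against 7.41, 7.82 and 7.74 (0.46), and Smad7 9.24, 8.46 and 8.57 against 7.88, 8.03 and 8.12 (0.75, adjusted p = 0.334). Without F191G A, 3 of the 44 were higher at that threshold, and without AQA A, 2.

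**Figure D5:**
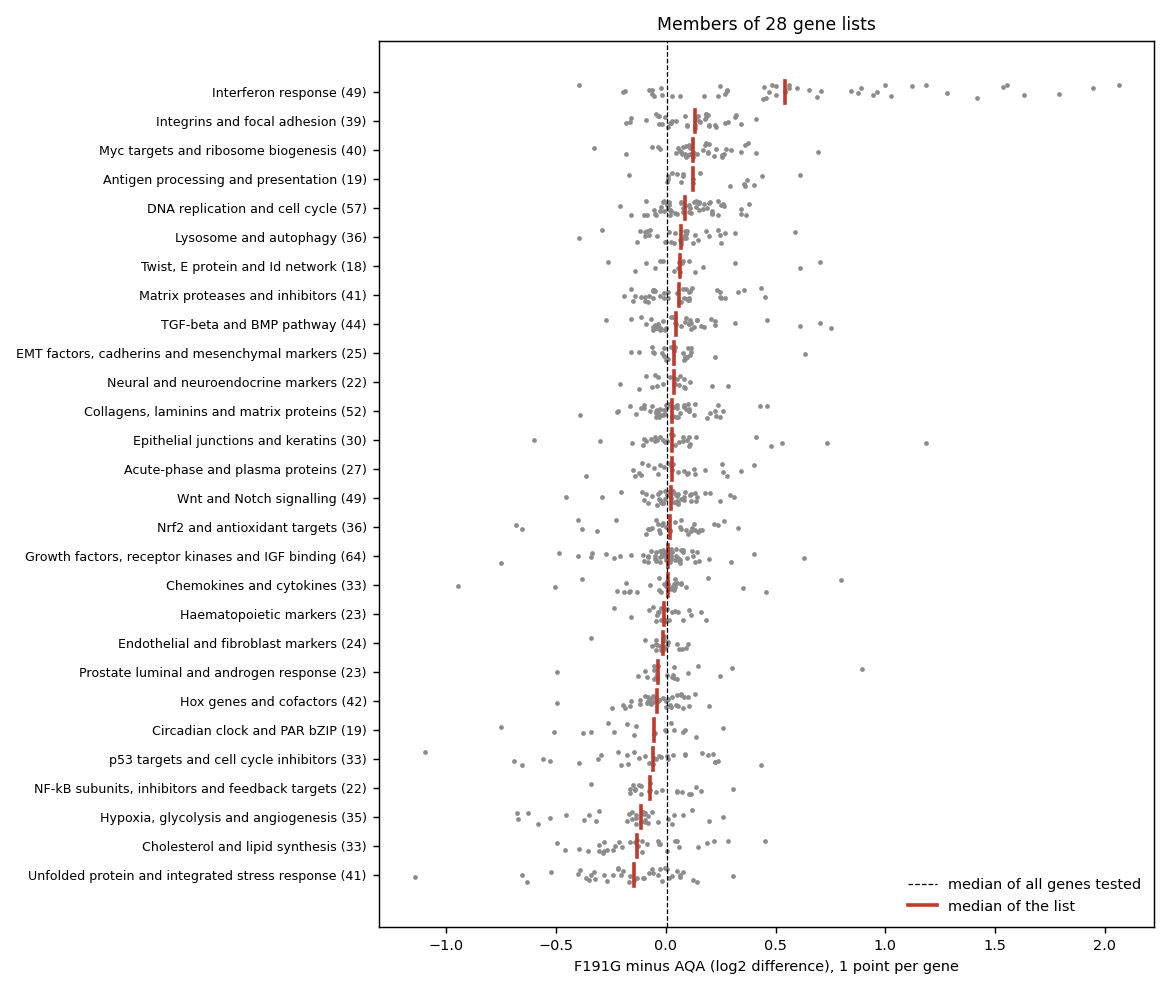
Difference between F191G and AQA (log2, horizontal axis) for each measured member of 28 gene lists, 1 point per gene, with the number measured beside each list name. Red bars are list medians and the dashed line is the median of all genes, and the interferon list, at 0.54, has the highest median and the stress response list, at -0.14, the lowest.

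Myc, the oncogene that drives this line as a human transgene, read 10.65, 10.10 and 10.31 in F191G and 9.46, 9.86 and 9.66 in AQA for its mouse probe set. The groups did not overlap, F191G A was the highest array and AQA A the lowest, and the difference was 0.69 (SE 0.154, limma adjusted p = 0.134), or 0.47 without F191G A. Whether the probe set also reads the human transgene was not tested. In the list of Myc targets and ribosome biogenesis, 9 of 40 were higher and 2 lower at an unadjusted p under 0.05, the median was 0.12, and in 19 the F191G arrays all lay above the AQA arrays. Over all genes the shares were 5.53% higher, 5.57% lower and 11.1% with all F191G arrays on top. Among them were the ribosome assembly genes Tsr1 (0.36), Nat10 (0.37) and Rrp12 (0.41), while Fbl (-0.33) and Npm1 (-0.18) were lower. Without F191G A, 1 of the 40 was higher at an unadjusted p under 0.05 and the median was 0.04.

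The median of the DNA replication and cell cycle list changed sign between the batches. Over its 57 genes it was 0.09, with 2 higher and 0 lower at an unadjusted p under 0.05 (5.53% and 5.57% of all genes). The median was 0.39 within batch A and -0.10 within batch B, and -0.13 without F191G A. Relative to VEC the list mean stood at 0.28 on F191G A and at -0.16 and -0.12 on F191G B and C, and at 0.09, -0.34 and -0.03 on AQA A, B and C. On WT A it was -1.54.

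Integrin and focal adhesion genes were higher at an unadjusted p under 0.05 in 6 of 39 and lower in 0, with a median of 0.13, and 15 had no overlap with F191G on top, where all genes gave 5.53% higher, 5.57% lower and 11.1% on top. Flna, the actin cross-linker filamin A, read 11.35, 11.09 and 11.15 in F191G and 10.74, 10.91 and 10.90 in AQA (0.34, limma adjusted p = 0.164). Vcl, the focal adhesion protein vinculin, read 10.44 to 10.55 against 10.27 to 10.33 (0.19, adjusted p = 0.191), and Actn1 (0.28), Itgb1 (0.20), Itga2 (0.32) and Itga3 (0.18) were the others. On the mean of the list relative to VEC the AQA arrays, at -0.18 to -0.10, were below every array of the other groups, and F191G ran from -0.07 to 0.02. Without F191G A or without AQA A, 3 of the 39 were higher at that threshold. In the list of epithelial junctions and keratins, which had 2 of 30 higher and 1 lower, the tight junction gene Cldn1 read 11.003, 10.31 and 10.44 against 9.42, 10.16 and 9.97 (0.73, adjusted p = 0.168), and Jup, the junctional plakoglobin, differed by -0.60 (adjusted p = 0.378).

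Of 35 measured hypoxia and glycolysis genes, 0 were higher and 10 lower in F191G at an unadjusted p under 0.05, against 5.53% and 5.57% of all genes. The median was -0.11, and 0 were called, where 0.0104% of all genes were. Pdk1, a mitochondrial kinase that inhibits pyruvate dehydrogenase, read 7.43, 7.82 and 7.82 on F191G A, B and C and 8.70, 7.86 and 8.54 on AQA A, B and C. The groups were apart, though AQA B nearly touched F191G, and the difference was -0.67 (SE 0.213, limma adjusted p = 0.24). Aldoc, a glycolytic aldolase, read 7.41, 7.85 and 7.58 against 8.48, 8.06 and 8.33 (-0.68, adjusted p = 0.18). Kdm3a, a hypoxia-induced histone demethylase, differed by -0.37 (adjusted p = 0.163), Bnip3l, a receptor for mitochondrial autophagy, by -0.32, and Vegfa, the main angiogenic growth factor, by -0.46. On the list mean AQA A stood at 0.34, AQA C at 0.22 and AQA B at 0.12 above VEC, and F191G between -0.02 and 0.10. Without F191G A, 2 of the 35 were lower at that threshold, and without AQA C, 4.

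The unfolded protein and integrated stress response list had the lowest median, -0.14, with 2 of 41 higher and 8 lower at an unadjusted p under 0.05, against 5.53% and 5.57% of all genes. Ddit4, an inhibitor of mTOR signalling, read 6.79, 7.77 and 7.53 in F191G and 8.61, 8.51 and 8.41 in AQA, a difference of -1.15 (SE 0.313, limma adjusted p = 0.175), and -0.72 without F191G A. Trib3, a pseudokinase induced by amino acid stress, differed by -0.35 (adjusted p = 0.276) and Herpud1, a component of protein degradation at the endoplasmic reticulum, by -0.63. Wars, a tryptophan transfer RNA synthetase that interferon also induces, went against them, at 10.16 to 10.31 in F191G and 9.88 to 9.95 in AQA (0.30, adjusted p = 0.121). The lower count of 8 was 2 without F191G A, 1 without AQA A, 5 without AQA C and 15 without AQA B.

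Among p53 targets and cell cycle inhibitors, 2 of 33 were higher and 6 lower at an unadjusted p under 0.05 (median -0.06). At that threshold 5.53% of all genes were higher and 5.57% lower, shares to set beside each list count in this paragraph. Sesn3, a sestrin that restrains mTOR, read 6.78, 7.26 and 7.11 in F191G and 7.79, 7.70 and 7.74 in AQA (-0.69, limma adjusted p = 0.116, or 0.043 without WT A), and the retinoblastoma family gene Rbl2 differed by -0.53. Without F191G A the lower count was 2. In the cholesterol and lipid synthesis list 3 of 33 were higher and 6 lower (median -0.13), and in 13 all F191G arrays lay below the AQA arrays, against 9.8% of all genes. Scd1, the stearoyl-CoA desaturase, read 10.60, 10.87 and 10.89 against 11.25, 11.11 and 11.19 (-0.40, adjusted p = 0.166), and Fasn, the fatty acid synthase, differed by 0.22 (adjusted p = 0.236). Without AQA A or F191G C the lower count was 2. Among chemokines, Cxcl15 read 8.06, 8.25 and 8.29 in F191G against 9.31, 8.88 and 9.25 in AQA (-0.95, adjusted p = 0.105, or 0.0447 without WT A), and in the list as a whole 2 of 33 were higher and 3 lower. In the circadian list 1 of 19 was higher and 3 lower, among them Ciart, a repressor of the clock (-0.75, adjusted p = 0.16). The 9 lists not described above had medians between -0.07 and 0.07, with at most 4 members past an unadjusted p of 0.05 in either direction.

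Markers of other cell types that a culture could hold differed little. Of 23 haematopoietic markers, 0 were higher and 1 lower at an unadjusted p under 0.05 (5.53% and 5.57% of all genes), with a median of -0.01. On the 6 arrays the mean of the list relative to VEC lay between -0.11 and -0.02. The 24 endothelial and fibroblast markers gave 0 higher and 1 lower with a median of -0.01, and the 22 neural and neuroendocrine markers 1 higher and 0 lower with a median of 0.04. The lower haematopoietic gene was Ptprc, the leukocyte phosphatase CD45 (-0.16, adjusted p = 0.345), and the lower fibroblast gene was Pdgfra, a platelet-derived growth factor receptor (-0.34, adjusted p = 0.376).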

How the data were processed

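RNA of Myc-CaP cells was measured on 15 arrays. The deposited values are log2 intensities of 23811 probe sets, made by the authors with RMA (background correction, quantile normalization, probe summarization) and examined with limma, per the submitters' processing notes. Tool versions are not given in these sources, nor the form of a normalization by Twist1 expression that the series' design text mentions. The platform annotation names 1 gene for 20852 probe sets and several for 1440, and does not list 1519, and 20805 matched a RefSeq gene identifier, with 0 symbols updated. Each symbol was represented by its brightest probe set on average, a choice made in 846 of 19297 genes, and no dim genes were removed.

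A linear model with group and labelled array batch (8 arrays in A, 7 in B) was fitted with limma 3.58.1 (R 4.3.3) over the 15 arrays (9 residual and 3.93 prior degrees of freedom). Tests were two-sided, with Benjamini-Hochberg adjustment over all genes and a threshold of 0.05. The fit was tested on simulated data. Within-batch values are plain differences of means. Genes named are Twist1, the 12 of smallest p in each direction, up to 4 of smallest p in each of 28 lists described, and 13 genes of epithelial-mesenchymal transition and the prostate, passing over clone names. Members and lists were chosen with earlier results of these data known, list members beyond the first 4 and genes picked by fold after their values were seen. Alternatives changed the model, samples, scaling, filter and probe sets and left out each array. Figures were drawn with matplotlib 3.10.9.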

Additional observations from a re-analysis of the deposited data

How the results depend on the processing

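The number of arrays, 3 per form, limits the precision, and the count of genes called was the least stable value. Against 2 genes in the reported fit, 76 were called without the batch term, 75 without WT A, 103 with array weights, 25 in batch B alone (1 AQA array), 14 without the genes in the lowest tertile of mean value, 5 with Twist1 as a covariate and 4 from the 6 arrays alone, and 0 with median centring (2136 at an unadjusted p under 0.05), in batch A alone (1 F191G array, 1372 at that threshold) and without WT A and AQA A together (2073), an alternative chosen after seeing the data. The pair Ctdsp1 and Dcps was among the calls in the first 3 of these, without the lowest tertile and with the covariate, and in 0 of the 4 from the 6 arrays or the 25 of batch B. Leaving out each of the 6 arrays in turn gave 0 to 3 calls, with 1374 to 2121 genes at an unadjusted p under 0.05. The replicate letter as a replicate block gave 0 calls in place of batch (2077) and 0 beside batch (1841). Deviations from the group mean of same-lettered F191G and AQA arrays correlated at -0.012, 0.12 and -0.32 for A, B and C. These deviations are not corrected for batch, and F191G B and AQA B lie in different batches. They therefore cannot decide whether the letters pair the arrays. In the single-batch fits the lone array is assumed to vary like the other groups. The cause of these shifts was not tested.

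The 24 genes of smallest p kept their direction in every alternative that tested them. They were picked on the arrays that these alternatives reuse, and their 6 arrays do not overlap, so this was largely set by the choice. Some small differences changed sign. Twist1 ran from -0.0508 to 0.169 with 1 array left out. In batch B alone Cdh1 was 0.025, Vim -0.0724, Fn1 -0.0133, Twist2 0.0217 and Nefl 0.028. In batch A alone Zeb1 was -0.0586, Hoxa9 0.0628, Tgfb1 -0.0201, Apoc1 -0.0321, Cd8a -0.00196, Col3a1 -0.0721 and Twist2 0.021. Twist2 was also 0.00369 with the replicate block beside batch, 0.0214 from the 6 arrays alone and 0.00429 with median centring. Without WT A and AQA A, Cdh2 was -0.0104, Fn1 -0.00916 and Twist2 0.0237. With 1 array left out, Cdh2 ran from -0.0274 to 0.0641, Vim from -0.0327 to 0.141, Fn1 from -0.0207 to 0.0288, Twist2 from -0.0664 to 0.0225 and Hoxa9 from -0.0979 to 0.0126.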
